A study of Mus musculus with 5 samples.

Results

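The voltage-gated sodium channel genes examined here are 8 members of the alpha-subunit family, *Scn1a*, *Scn2a1*, *Scn3a*, *Scn7a*, *Scn8a*, *Scn9a*, *Scn10a* and *Scn11a*, out of 22380 protein-coding genes in the mouse annotation of the mm9 assembly (NCBIM37). They were selected on the positions and scores of the *Paupar* CHART-Seq peaks near them, so their peak counts are a description and carry no test. *Paupar* is a long non-coding RNA transcribed upstream of *Pax6*, and CHART-Seq recovers and sequences the DNA that is crosslinked to an RNA, by capturing the RNA with complementary, biotin-tagged oligonucleotides. The cells were N2A, a mouse neuroblastoma line, in 3 groups: 2 *Paupar* pull-downs, 2 pull-downs with a non-targeting *LacZ* oligonucleotide as control, and 1 sample of input DNA. All 5 libraries were made from this 1 tumour-derived line, and expression of the sodium channel genes was not measured in these files. The deposited result is a single list of 2849 peaks, each with a position and a score. There is no value per library, so no peak has a replicate error and the number of reads behind it is unknown.

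Each alpha subunit forms a complete sodium pore on its own. The channels open when a membrane is depolarised and carry the fast inward current that starts and spreads the action potential, and small beta subunits, anchoring proteins and cytoplasmic regulators set where they sit and how they close. *Scn1a*, *Scn2a1*, *Scn3a* and *Scn8a* are the forms of the central nervous system, *Scn9a*, *Scn10a* and *Scn11a* are best known from sensory neurons that detect pain, and *Scn7a* encodes an atypical channel that senses sodium concentration and not voltage.

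A gene was given every peak whose midpoint lay in its regulatory domain, a stretch that took in 5 kb before the gene start and 1 kb after it and reached on both sides to the corresponding interval of the next protein-coding gene, by at most 1 Mb. By this rule 5 of the 8 genes had a peak, beside 16.4% of all protein-coding genes (3676 of 22380). The 5 were *Scn1a*, *Scn3a*, *Scn8a*, *Scn9a* and *Scn10a*, and the 3 without a peak were *Scn2a1*, *Scn7a* and *Scn11a*. Together they held 6 distinct peaks: 3 at *Scn8a*, 1 at *Scn3a*, 1 at *Scn10a* and 1 that the neighbouring genes *Scn9a* and *Scn1a* share. The highest-scoring and widest peak of the whole list was among them, at *Scn8a*.

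Several stretches of sequence carry what follows, and all are given 5′ to 3′ on the plus strand of mm9 unless they are oligonucleotides. The 4 oligonucleotides that pulled down *Paupar* are shown first, because every peak was searched for them. Capitals in PauparCHART2067 mark the 11 nt, bases 13 to 23 counted from its 5′ end, that also occur in the wide *Scn8a* peak.
PauparCHART254: ggcttaagtccacccctggattcg
PauparCHART428: gcctggaactagatcaaggcagag
PauparCHART2041: ctctcagaaactgcgatacaaaag
PauparCHART2067: gaggcctagtcaAAATATCTCCAc
The matching site lies near the upper end of the wide *Scn8a* peak and is shown with 30 bases on each side, the match in capitals.
Wide *Scn8a* peak, chr15:100753839-100753909: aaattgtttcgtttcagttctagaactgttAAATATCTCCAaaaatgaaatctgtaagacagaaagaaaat
The same peak holds a long array of a 16-bp unit and a shorter array of a 23-bp unit. In each of the following stretches of 240 bp, capitals mark exact copies of the most frequent unit, agagtgcaggggtgag in the first and acctgtctgtatcctccatgtgt in the second.
Wide *Scn8a* peak, chr15:100747909-100748148: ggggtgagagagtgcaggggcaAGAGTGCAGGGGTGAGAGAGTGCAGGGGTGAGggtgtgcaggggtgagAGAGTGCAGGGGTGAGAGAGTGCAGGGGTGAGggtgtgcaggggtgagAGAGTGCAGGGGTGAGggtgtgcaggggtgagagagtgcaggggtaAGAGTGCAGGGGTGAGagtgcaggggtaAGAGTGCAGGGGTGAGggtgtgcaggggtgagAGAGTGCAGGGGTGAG
Wide *Scn8a* peak, chr15:100750952-100751191: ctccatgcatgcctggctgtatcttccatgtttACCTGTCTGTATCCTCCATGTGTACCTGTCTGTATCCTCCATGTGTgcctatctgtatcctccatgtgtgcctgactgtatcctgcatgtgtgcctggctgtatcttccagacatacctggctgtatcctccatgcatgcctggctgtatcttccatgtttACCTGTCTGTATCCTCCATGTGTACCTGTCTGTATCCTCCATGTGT
The peak that *Scn9a* and *Scn1a* share is shown over its central 300 bp, with a perfect repeat of the unit TGATG in capitals.
*Scn9a* and *Scn1a* peak, chr2:66419877-66420176: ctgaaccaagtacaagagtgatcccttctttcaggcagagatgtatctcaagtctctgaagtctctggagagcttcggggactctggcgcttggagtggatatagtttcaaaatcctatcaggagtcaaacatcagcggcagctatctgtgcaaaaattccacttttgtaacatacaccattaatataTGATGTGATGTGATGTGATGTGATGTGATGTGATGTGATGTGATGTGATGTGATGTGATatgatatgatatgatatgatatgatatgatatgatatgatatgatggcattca
The peak in *Scn10a* is the narrowest of the 6 and is shown whole, and the peak beyond *Scn3a* over its central 300 bp, both with CpG dinucleotides in capitals.
*Scn10a* peak, chr9:119564251-119564467: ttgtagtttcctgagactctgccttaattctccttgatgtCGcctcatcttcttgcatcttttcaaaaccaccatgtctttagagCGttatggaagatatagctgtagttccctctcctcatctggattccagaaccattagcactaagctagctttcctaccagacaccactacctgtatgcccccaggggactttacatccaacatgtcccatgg
*Scn3a* peak, chr2:65234426-65234725: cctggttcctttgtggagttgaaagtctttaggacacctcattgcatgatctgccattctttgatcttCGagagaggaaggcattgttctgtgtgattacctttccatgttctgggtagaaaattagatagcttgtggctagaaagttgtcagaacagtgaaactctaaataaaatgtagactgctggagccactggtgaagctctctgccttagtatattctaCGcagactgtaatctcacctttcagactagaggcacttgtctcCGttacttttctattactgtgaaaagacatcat
The last sequence ends at a start of *Scn8a* that RefSeq gives and the mm9 annotation used here does not. It covers the 200 bp upstream of that start and, in capitals, the first transcribed base.
*Scn8a* RefSeq start, chr15:100700876-100701076: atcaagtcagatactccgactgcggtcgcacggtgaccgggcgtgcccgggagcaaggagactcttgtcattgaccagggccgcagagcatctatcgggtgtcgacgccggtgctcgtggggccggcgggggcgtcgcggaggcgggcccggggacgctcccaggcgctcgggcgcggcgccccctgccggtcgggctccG

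*Scn8a* encodes the main sodium channel of nodes of Ranvier and of the axon initial segment in mature neurons, and it is the member with the most peaks. The annotation holds 2 protein-coding entries under this name, a short one on chromosome 15 from 100763860 to 100771229 (ENSMUSG00000090536) and a longer one from 100785829 to 100876360 (ENSMUSG00000023033), both on the plus strand. They were treated as 1 gene. The wide peak, at chr15:100745135-100754577, was 9443 bp wide with a score of 305.37, rank 1 of 2849 for both. Its printed score was 2.01 times the next highest score of the list, 151.88, and 24.1 times the median of 12.69. The list does not give the scale of the score, so these are ratios of printed values and not of signal. The width of this peak was 1.31 times the second widest. The midpoint lay 14004 bp upstream of the short entry, in sequence with no annotated gene of any kind. A second peak, at chr15:100742175-100744792, lay 342 bp below it, with a width of 2618 bp and a score of 12.17 (rank 1512). It was wide for its score: its width ranked 72. The third peak, at chr15:100809702-100810071, was 370 bp wide with a score of 7.18 (rank 2692), and lay in an intron of the longer entry, 24057 bp downstream of that entry's start and 4234 bp from the nearest exon.

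The 3 *Scn8a* peaks thus spanned most of the range of scores in the list, whose lowest score was 5.34. Where they lie relative to *Scn8a* depends on which start is used. RefSeq (GRCm38.p6) gives 2 starts of *Scn8a*, whose promoter windows occur once each on chromosome 15 of mm9 and place the starts at 100701076 and 100766702. The wide peak lay 48.8 kb downstream of the first of these and 16.8 kb upstream of the second, and the 2618 bp peak lay 42.4 kb downstream and 23.2 kb upstream. Both peaks thus lay between the RefSeq starts of *Scn8a*, although they are intergenic in the mm9 annotation. By the domain rule both were also assigned to *Slc4a8*, a sodium and bicarbonate transporter gene that starts 157678 bp upstream of the midpoint of the wide peak, and the intronic peak was also assigned to *Ankrd33*, which starts 136300 bp downstream of it. *Slc4a8* held 4 peaks and shared 2 with *Scn8a*, a likeness of 0.4 when shared peaks are divided by all peaks of either gene. This sharing rests on the annotation used. The RefSeq start at 100701076 lies between the *Slc4a8* start and both peaks, and as a boundary it would end the *Slc4a8* domain before them.

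**Figure D1:**
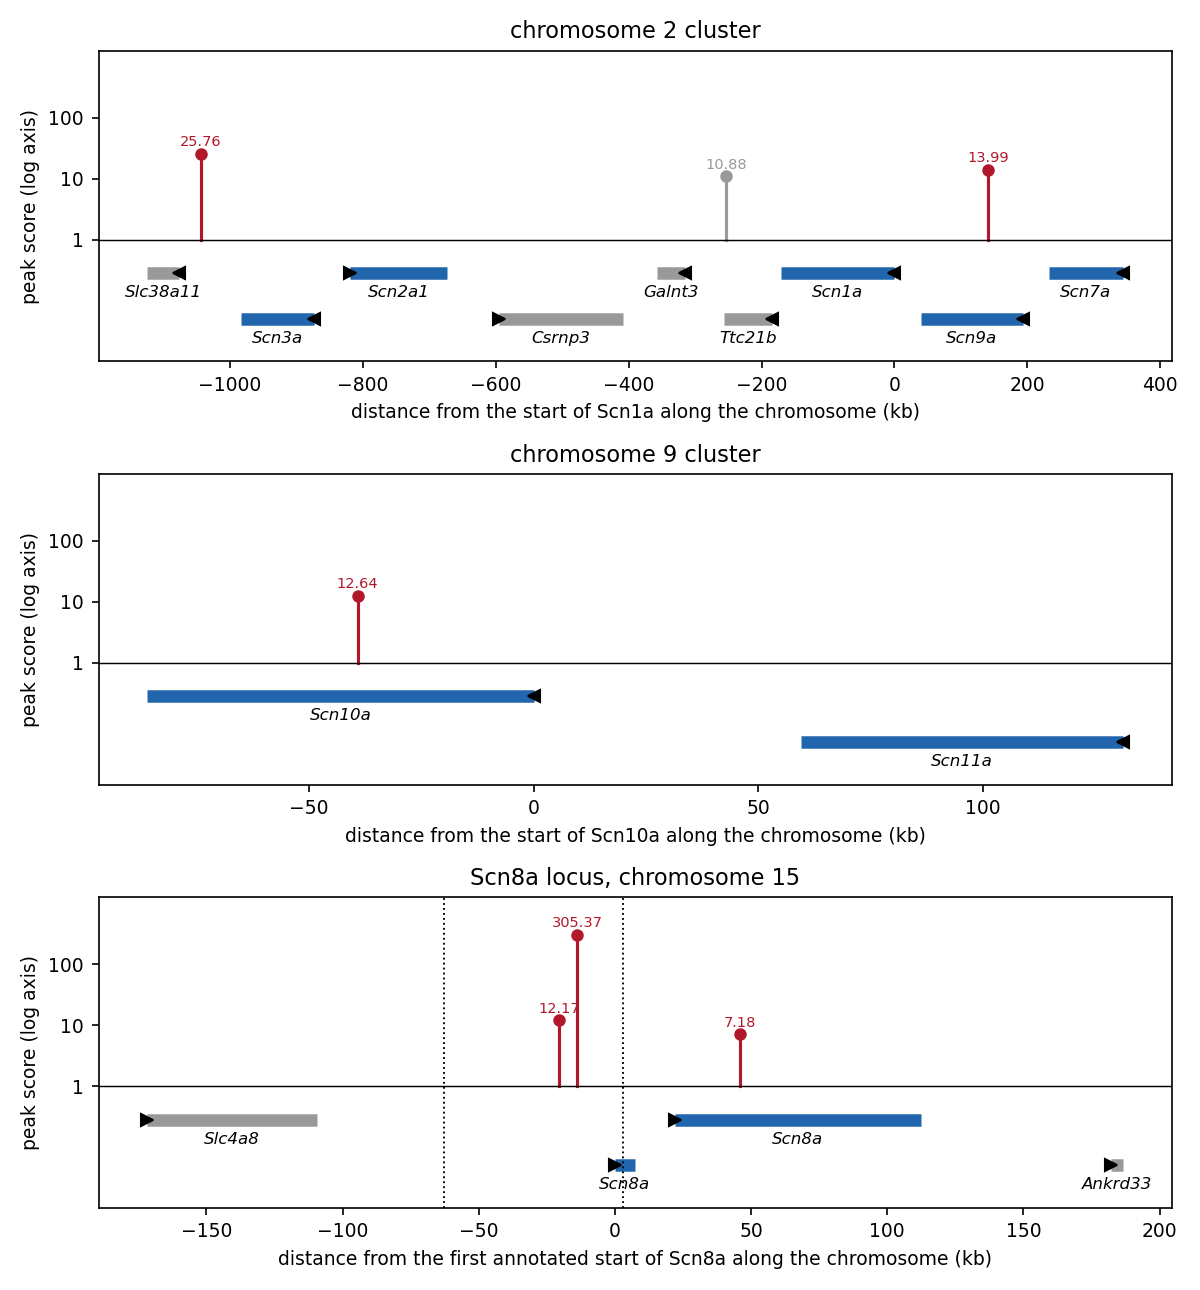
Peaks at the 3 sodium channel loci, with the distance along the chromosome from the start of *Scn1a* (top), *Scn10a* (middle) or the short *Scn8a* entry (bottom) in kb on the x axis and the peak score on a log y axis. Stems with a number are peaks and their scores, red in a domain of the 8 genes and grey otherwise. Bars are protein-coding genes, blue for the 8 genes, with an arrowhead at each start pointing in the direction of transcription. Dotted lines are the 2 RefSeq starts of *Scn8a*, and the peaks with scores of 12.17 and 305.37 stand between them.

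Base composition varied along the wide *Scn8a* peak. In windows of 300 bp it ran from 41% to 65% G + C, with a median of 49%, and the peak as a whole had 50.7% G + C where the median over all peaks was 48.1%. The most GC-rich part was the array of the 16-bp unit, which covered 1179 bp at chr15:100747439-100748617, held 63.3% G + C and 1 CpG, and matched itself at 74.9% of bases when shifted by 1 unit. Counted without overlap, it contained 22 exact copies of the unit. This was 91.7% of the 24 such copies on the chromosomes of mm9, both strands counted, and no other peak of the list held the unit. The array of the 23-bp unit covered 541 bp at chr15:100750899-100751439, with 51% G + C and no CpG. All 5 exact copies of its unit in mm9 were in this peak. CpG dinucleotides were instead most frequent at the 2 ends: the window centred 9000 bp from the lower end held 16, at 57.3% G + C, and 37 of the 183 windows held none.

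Sequence that recurs within a peak was then measured as the bases lying in a 24-mer found more than once on the same strand of that peak. Of the 2849 peaks, 13.5% held at least 100 bp of it. Of the 6 sodium channel peaks, 2 did: the wide *Scn8a* peak with 1667 bp, rank 11 of the list, and the shared *Scn9a* and *Scn1a* peak with 104 bp. The other 4 held 0 bp. Recurring sequence was more frequent in wide peaks of any gene, at 81.4% of the 86 peaks over 2400 bp, against 41.9% and 34.9% of the regions of equal length directly below and above them. Reads were kept by the authors only where they had a single best position, and the part of repeated sequence in the scores was not tested.

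**Figure D2:**
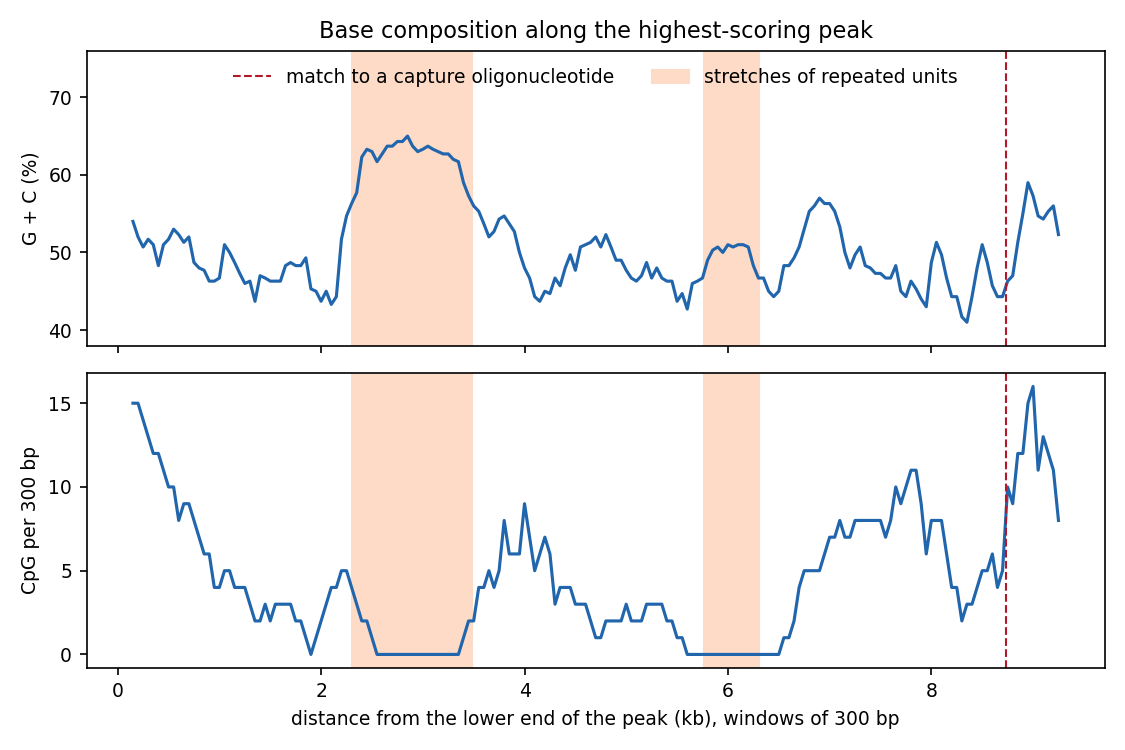
Base composition along the highest-scoring peak, at *Scn8a*, in windows of 300 bp every 50 bp, with the distance from the lower end of the peak in kb on the x axis. The upper panel gives G + C in percent on an axis that does not start at 0, and the lower panel CpG dinucleotides per window. Shading marks the arrays of the 16-bp and 23-bp units, over most of which CpG is 0, and the dashed line marks the 11 nt match to a capture oligonucleotide.

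The other forms of the central nervous system lie in a cluster on chromosome 2, together with *Scn9a* and *Scn7a*. The 5 genes extend over 1328 kb, with *Csrnp3*, *Galnt3* and *Ttc21b* between *Scn2a1* and *Scn1a*, and *Paupar* itself lies 39.1 Mb from the nearer of the 2 sodium channel peaks on this chromosome. *Scn3a*, a channel of the embryonic brain (ENSMUSG00000057182, minus strand, 65295175 to 65405684), had 1 peak at chr2:65234098-65235054. It was 957 bp wide, and its score of 25.76 was the second highest of the 6 (rank 368). The midpoint lay 171108 bp downstream of the *Scn3a* start, beyond the 3′ end of the gene and in intergenic sequence. The start of *Slc38a11*, a gene of an amino acid transporter family, was closer, at 32485 bp, and *Scn3a* and *Slc38a11* had this peak and no other.

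*Scn1a* encodes the channel of fast inhibitory interneurons and is a major epilepsy gene (ENSMUSG00000064329, minus strand, 66108838 to 66278897). *Scn9a* encodes a channel that sets the threshold of pain fibres (ENSMUSG00000075316, minus strand, 66318137 to 66473009). Their domains overlap, and both contained the peak at chr2:66419867-66420187, which was 321 bp wide with a score of 13.99 (rank 1219). It lay in an intron of *Scn9a*, 52982 bp downstream of the *Scn9a* start and 13656 bp from the nearest exon, and 141130 bp upstream of the *Scn1a* start. *Scn1a* and *Scn9a* had no other peak, so their likeness was 1. No peak lay in the body of *Scn1a*. The perfect repeat of TGATG in this peak was 59 bp long. Of all peaks, 13.3% held a perfect repeat of at least 24 bp with a unit of at most 6 bp, against 20.5% of the equal regions on either side, and of the 6 sodium channel peaks this was the 1 that did. The count rests on the cut: the wide *Scn8a* peak and the *Scn3a* peak held perfect repeats of 23 bp, and the 2618 bp *Scn8a* peak one of 22 bp.

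*Scn2a1*, the channel of the early axon initial segment in excitatory neurons (ENSMUSG00000075318, plus strand, 65458914 to 65605504), had no peak in its domain of 268 kb. The nearest peak was the one beyond *Scn3a*, 224338 bp upstream of the start and 176109 bp outside the domain. *Scn7a* (ENSMUSG00000034810, minus strand, 66511482 to 66622971) had the widest domain of the 8 genes, 793 kb, and no peak in it. The peak in *Scn9a* was nearest, 202944 bp downstream of the *Scn7a* start and 57983 bp outside its domain. One further peak of the cluster, at chr2:66025341-66025834 with a score of 10.88, lay in *Ttc21b* and missed the domain of *Scn1a* by 74088 bp.

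The sensory neuron genes *Scn10a* and *Scn11a* are neighbours on chromosome 9. *Scn10a* encodes a channel that resists tetrodotoxin (ENSMUSG00000034533, minus strand, 119517584 to 119603478), and 1 peak lay in its intron at chr9:119564251-119564467. The peak was 217 bp wide with a score of 12.64 (rank 1436), 39119 bp downstream of the gene start and 3162 bp from the nearest exon. From the RefSeq start of *Scn10a*, at 119628150, the distance was 63.8 kb. *Scn11a*, whose channel gives a persistent current near rest (ENSMUSG00000034115, minus strand, 119662881 to 119734574), had no peak in its domain of 191 kb. The same *Scn10a* peak was the nearest, 170215 bp downstream of the start and 44120 bp outside the domain.

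The nearest midpoint of a peak to an annotated start of the 8 genes was 14004 bp away. The peak closest to the edge of a sodium channel domain on the inside was that of *Scn3a*, 27484 bp from it. With the 2 *Scn8a* entries taken as 1 gene, the closest on the outside was at chr15:100577844-100578427, with a score of 10.62, which missed the domain of the short *Scn8a* entry by 15044 bp. From a gene start to the nearest peak of any score, the median over the 8 genes was 155672 bp, against 277386 bp over all protein-coding genes. In order of this distance *Scn8a* (14004 bp) came first and *Scn10a* (39119 bp), *Scn9a* (52982 bp), *Scn1a* (141130 bp), *Scn11a* (170215 bp), *Scn3a* (171108 bp), *Scn7a* (202944 bp) and *Scn2a1* (224338 bp) followed. These are positions in 1 list, with no error that could set neighbours in the order apart.

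The median score of the 6 peaks was 13.32 and their median width 664 bp, against 12.69 and 556 bp over all peaks, and 3 of the 6 exceeded the median of the list on each measure. They covered 13926 bp, of which 67.8% was the wide *Scn8a* peak.

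**Figure D3:**
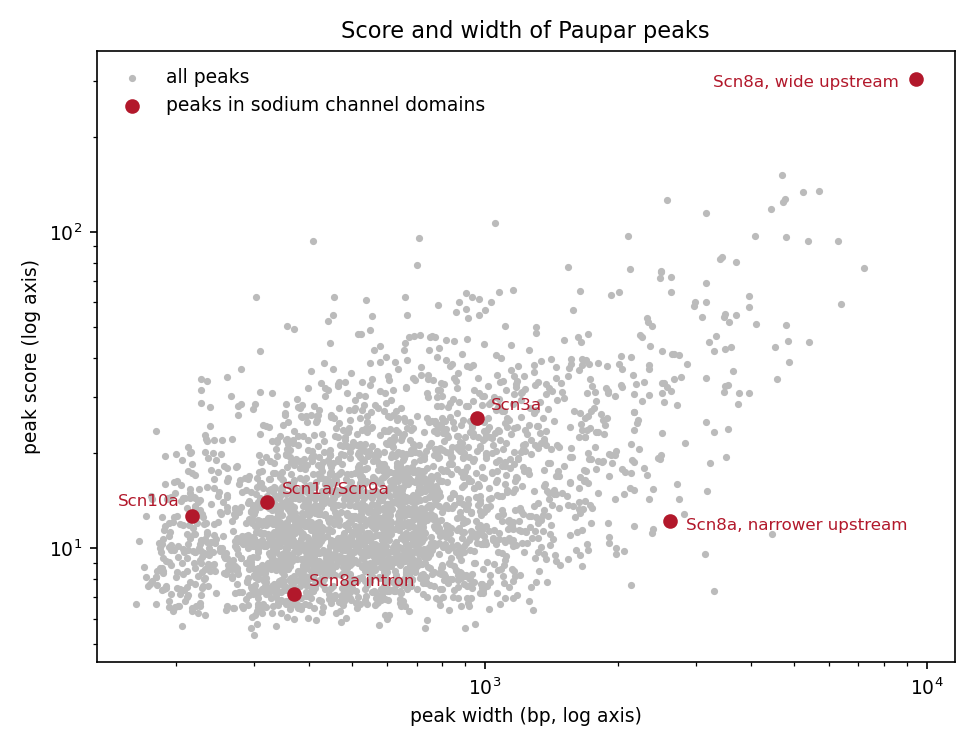
Peak score against peak width for the 2849 peaks (grey) and the 6 peaks in sodium channel domains (red), both on log axes. The wide peak of *Scn8a* stands at 9443 bp and 305.37, above and to the right of every other peak, and the remaining 5 peaks lie within the cloud.

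The count of 5 in 8 has to be read beside the width of the domains, since a wider domain holds more peaks. The domains of the 8 genes, with *Scn8a* counted as 2 entries, were 176 to 793 kb wide, where the median over all genes was 89510 bp. Among the 5240 protein-coding genes whose domains fell in that range of widths, 30.6% had a peak. Within gene bodies the count was smaller: *Scn8a*, *Scn9a* and *Scn10a* had a peak inside the gene, 3 of 8, beside 5.04% of all protein-coding genes, whose bodies were not compared for length. Per Mb of sequence, the joined sodium channel domains (2.3 Mb) held 2.61 peaks and the joined domains of all genes 1.12. The loci differed among themselves. The *Scn8a* domains held 8.62 peaks per Mb, the *Scn10a* and *Scn11a* domains 3.27, and the chromosome 2 domains 1.22.

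Partner genes of the channel were counted by the same rule. Of 21 partner genes in the annotation, 6 had a peak (28.6%), and 2 more on the list, *Sptbn4* and *Scnm1*, have no protein-coding entry there under these symbols. The domains of the 21 genes had a median of 484687 bp, against 89510 bp over all genes, and 35.1% of all genes with domains of 400 to 800 kb had a peak. The alpha-subunit gene *Scn4a*, which encodes the channel of skeletal muscle, was counted apart and had no peak. Among 3 beta subunits, which modulate gating and adhesion, *Scn3b* had a peak 209579 bp downstream of its start with a score of 15.68, and *Scn2b* and *Scn4b* had none. Among the 4 intracellular FGF homologous factors, which bind the tail of the channel and modulate its inactivation, *Fgf12* had a peak 361729 bp upstream with a score of 12.06, and *Fgf11*, *Fgf13* and *Fgf14* had none.

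*Ank3*, which encodes ankyrin-G and anchors the channels at the axon initial segment, had a peak 374597 bp downstream of its start with a score of 10.37. It was the only one of 8 anchoring genes with a peak in its domain, the others being *Ank2*, *Nfasc*, *Nrcam*, *Cntn1*, *Cntn2*, *Cntnap1* and *Cntnap2*. A peak lay 1661 bp from the start of *Cntnap1*, a gene of the paranodal junction, but outside its domain. Of 3 regulators, *Nedd4l*, a ubiquitin ligase that removes channels from the membrane, had 1 peak with a score of 11.42, and *Calm2* had 1, 9315 bp downstream of its start, with a score of 9.58. *Calm2* and *Calm3* encode calmodulin, which binds the tail of the channel, and *Calm3* had no peak. In the sodium leak channel complex, the subunit gene *Unc80* had a peak 29027 bp downstream of its start with a score of 22.98, and *Nalcn* and *Unc79* had none.

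Other channel families were counted beside them. Of 96 genes with symbols beginning *Kcn*, which encode potassium channel subunits, 31 had a peak (32.3%), and of 26 beginning *Cacn*, which encode calcium channel subunits, 9 did (34.6%). Their domains had medians of 210458 bp and 157064 bp, against 246822 bp for the sodium channel genes. With 8 genes chosen for their peaks, no test of the sodium channel genes against these families was made.

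**Figure D4:**
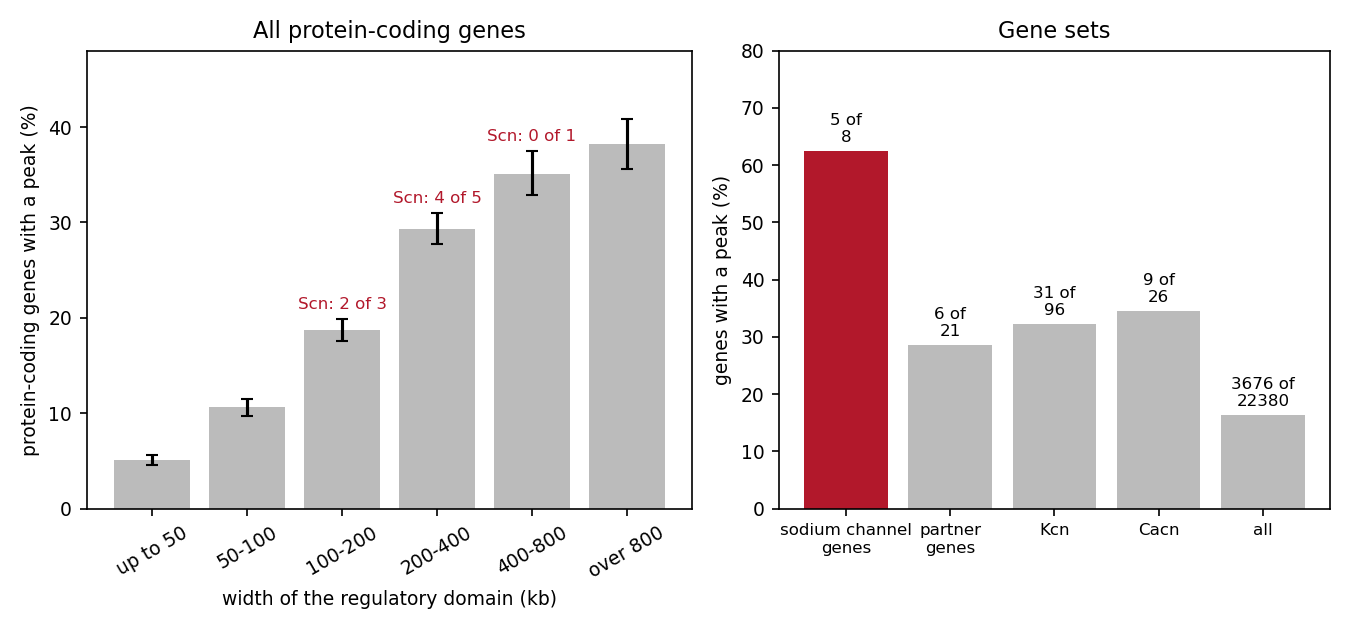
Share of genes with at least 1 peak in their regulatory domain. The left panel gives all protein-coding genes by width of the domain in kb, with 95% Wilson intervals for counting error, and the red text gives the annotation entries of the 8 genes with a peak in each class. The right panel gives the sodium channel genes (5 of 8), their partners (6 of 21), *Kcn* (31 of 96), *Cacn* (9 of 26) and all protein-coding genes (3676 of 22380), and the share rises with domain width from 5.1% to 38.2%.

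To see whether the peaks hold sequence of the capture oligonucleotides themselves, each peak was searched on both strands for exact matches of at least 10 nt. Of the 2849 peaks, 24.6% held one (95% Wilson interval 23% to 26.2%, counting error only), against 10.5% of the equal regions below the peaks and 10% of those above. Of the 6 sodium channel peaks 1 did, the wide *Scn8a* peak, through the 11 nt of PauparCHART2067 shown above at chr15:100753869-100753879. Its equal region below held a longest match of 10 nt and the one above a match of 9 nt. Below the cut of 10 nt, the longest match of PauparCHART254 in the wide peak was 9 nt, at chr15:100748364-100748372. That site lies in the array of the 16-bp unit. Each exact copy of the unit holds 8 nt of PauparCHART254, cacccctg, on the minus strand. In the other 5 peaks the longest match was 9 nt (*Scn3a*, *Scn10a* and the 2618 bp *Scn8a* peak) or 8 nt (the shared *Scn9a* and *Scn1a* peak and the intronic *Scn8a* peak). The share rose with width: 48.8% of the 86 peaks over 2400 bp held one, and 14.1% of the 333 peaks of at most 300 bp. The *LacZ* oligonucleotide gave a longest match of 9 nt in the wide *Scn8a* peak and of 6 or 7 nt in the other 5.

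**Figure D5:**
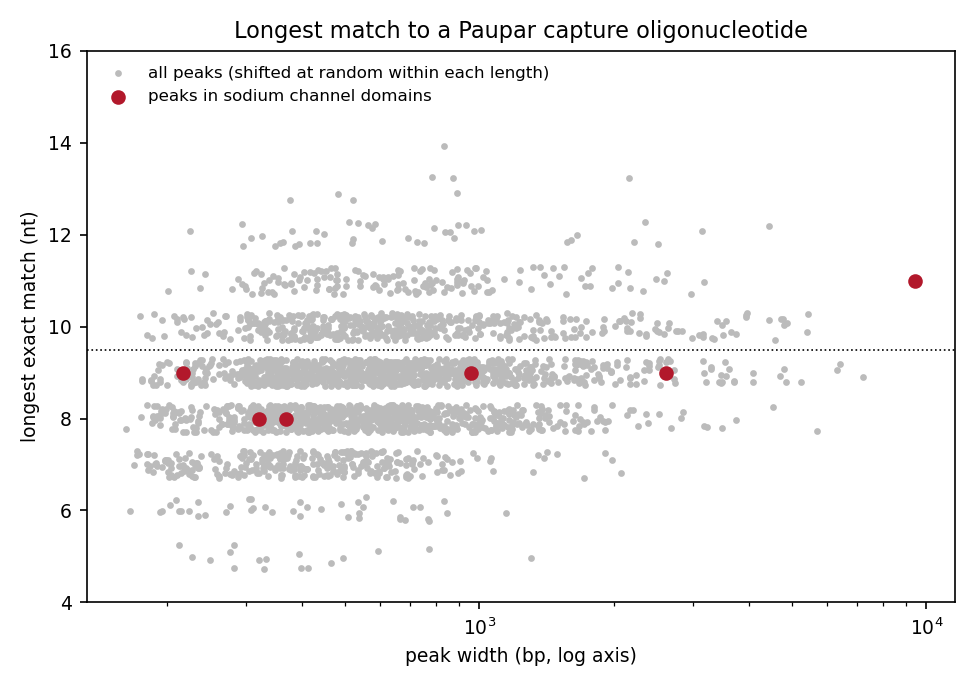
Longest exact match to any of the 4 *Paupar* capture oligonucleotides, in nt, against peak width in bp on a log axis, for peaks of the list that matched by at least 5 nt (grey, shifted at random within each length for display) and the 6 sodium channel peaks (red). The dotted line separates matches of at least 10 nt, and the wide *Scn8a* peak at 11 nt is the red point above it.

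Base composition also varied among the 6 peaks. G + C ran from 38.6% in the shared *Scn9a* and *Scn1a* peak to 50.7% in the wide *Scn8a* peak, and the ratio of observed to expected CpG from 0.15 to 0.27, where a CpG island would have at least 0.6. In the central 200 bp, on both strands, the paired-domain site of PAX6 with up to 2 mismatches was found in 1 of the 6, the intronic *Scn8a* peak, beside 9.79% of all peaks. CACCCC was found in 0 of 6, beside 25.8% of all peaks, and ATCATC in 0 of 6, beside 13.8%. These letters were counted in 200 bp windows and describe the windows alone. The array of the 16-bp unit lies outside the window of the wide *Scn8a* peak. Each of its 22 exact copies of the unit holds CACCCC, read on the minus strand. The longest exact match to the *Paupar* transcript itself was 10 to 16 nt in the 6 peaks, where the median over all peaks was 11 nt.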

How the data were processed

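Per the labels and the study's methods, paired reads were aligned by the authors with Bowtie (build mm9), with reads of a single best position kept. Peaks were called with MACS2 in the *Paupar* libraries, once relative to *LacZ* and once relative to input DNA. The calls were filtered further by q value, and those of both comparisons were kept. How the 2 pull-downs were joined is not stated. The authors deposited 1 list with positions, converted here to count from 1, and a score whose meaning the list does not give. For its motif search the paper chose top peaks by the MACS2 peak score. The list does not say whether its score is that one. The score served here for ranks and filters, and for medians and ratios of its printed values. Domains were drawn over the 22380 protein-coding genes of the GENCODE annotation of NCBIM37, and RefSeq promoter windows (GRCm38.p6) were placed on NCBIM37 by exact match over their whole length, for 8 of the 9 alpha-subunit genes described; coordinates of GRCm38.p6 were not used. Matches and repeats were exact.

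The members and gene lists were chosen with earlier results of these data known. Named are every member, listed partner genes, every peak in a member's domain, the nearest peak outside it and genes that share a peak. Some genes of these lists are left out of names and list counts and are not reported here. The search for longer repeats and the RefSeq starts were added after seeing the data. The steps were tested on simulated data. Python 3.11.15, numpy 2.4.6, scipy 1.17.1 and matplotlib 3.10.9 were used. Replicates could not be compared.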

Additional observations from a re-analysis of the deposited data

How the results depend on the processing

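The 6 peaks lie far from annotated starts, so the counts depend on the reach of a domain. With an extension of at most 100 kb 3 of the 8 genes had a peak (*Scn8a*, *Scn9a* and *Scn10a*), as did 2 partner genes and 11.8% of all protein-coding genes, and with no extension 0 of the 8, with 0 peaks, 0 partners and 1.71% of all genes. With each peak given only to the nearest start, 3 of the 8 genes (the same 3), 2 partners and 9.93% of all genes had one. With genes of every biotype as boundaries, the values were 2 (*Scn8a* and *Scn10a*), 4 and 11.6%. At a score of at least 10, 5 genes remained with 5 peaks, and all genes fell to 12.6%. At a score of at least 20, 2 genes with 2 peaks remained (*Scn3a* and *Scn8a*), with 1 partner, 4.36% of all genes, 0.871 peaks per Mb (0.245 over all domains) and a median distance of 968659 bp (1268503 bp over all genes). That distance was 114660 bp from the nearest transcript start (268499 bp over all genes) and 155674 bp from RefSeq starts, beside 155672 bp from the starts used in the report. A match of at least 9 nt was held by 4 of the 6 peaks and 58.5% of all peaks. None of the 6 (0) held one of at least 12 nt, one of at least 10 nt in the central 200 bp, or one of at least 10 nt to the *LacZ* oligonucleotide, beside 1.76%, 10% and 0.281% of all peaks. Of 54 alternatives computed, 29 left a count or the peaks per Mb within 1.5 times, the median distance identical to the base pair, or the share of all genes within its 95% interval. These included merging peaks within 10 kb, counting any overlap, leaving out the highest peak (2.18 peaks per Mb) and leaving out the short *Scn8a* entry. The last 2 and the RefSeq starts were chosen after seeing the data.

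The list gives 1 position and 1 score per peak, so leaving out a replicate was not possible, and read depth at the peaks is unknown. No paired analysis was possible because the list holds no value per library. What repeated sequence or direct binding of the oligonucleotides adds to a score was not tested.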

Other observations

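The intronic *Scn8a* peak and the shared *Scn9a* and *Scn1a* peak were below the median width of the list, and their equal flanking regions held no recurring 24-mers, unlike the region above the wide *Scn8a* peak, which held 580 bp. The region below the wide peak, which includes the 2618 bp peak, held 36 bp. The region above the *Scn10a* peak held 177 bp, although the peak itself held 0 bp.

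The longest match to the *Paupar* transcript around the wide *Scn8a* peak was longer outside the peak than inside it: 15 nt in the peak, 18 nt in the equal region below and 45 nt in the equal region above. Over all peaks, the equal regions below and above each had a median of 12 nt, with highest values of 67 and 69 nt. The region above the wide peak also held a perfect tandem repeat of 136 bp. Whether this repeat is part of the 45 nt match was not tested. The wide peak held 147 CpG dinucleotides and the equal regions 109 and 108. Of its 183 windows of 300 bp, 8 had both a G + C content of at least 50% and an observed to expected CpG ratio of at least 0.6.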
